A study of Homo sapiens with 4 samples.

Results

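This report describes 10 genes of the NF-kappa-B response, the chemokines CXCL1, CXCL2, CXCL3, CXCL8 and CCL20, the interleukins IL6, IL1A and IL1B, and the response genes LCN2 and TNFAIP3, in 2 triple-negative breast cancer cell lines. They were picked by name from the 50653 genes of the deposited expression table, through their Ensembl identifiers, and all 10 were found. RNA-seq was performed on 4 libraries, 1 each for BT-20 with control shRNA, BT-20 with QPRT shRNA, MDA-MB-468 with control shRNA and MDA-MB-468 with QPRT shRNA. QPRT encodes quinolinate phosphoribosyltransferase, an enzyme of the kynurenine route to NAD. A short hairpin RNA (shRNA), delivered here with a lentivirus, directs degradation of the matching mRNA, and all 4 cultures had been transduced and selected with puromycin. Values are FPKM, the fragments of a gene scaled for transcript length and for the fragments of the library, and libraries had been scaled to between 10321996 and 10945948 fragments.

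Some limits of these samples apply throughout. Each combination of cell line and shRNA is 1 library, so a change within a line has no replicate check. The lines were grown in different media (EMEM for BT-20, Leibovitz L-15 for MDA-MB-468), and line and medium cannot be told apart. The QPRT hairpin is not named in the labels, and with 1 QPRT shRNA library per line hairpins cannot be compared. In such bulk RNA, fewer cells that express a gene and less of its RNA per cell cannot be told apart.

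NF-kappa-B is a family of dimeric transcription factors held in the cytoplasm by inhibitor proteins (I-kappa-B). Receptors for TNF, interleukin-1 or microbial products activate a kinase complex that marks the inhibitors for destruction, and the released dimers enter the nucleus and induce chemokines, cytokines and their own inhibitors. CXCL1, CXCL2, CXCL3 and CXCL8 attract neutrophils through the receptors CXCR1 and CXCR2, and CCL20 acts through CCR6. IL1A and IL1B are ligands of the interleukin-1 receptor, IL6 signals through IL6R and IL6ST, LCN2 (lipocalin-2) binds iron-carrying siderophores, and TNFAIP3 (A20) edits ubiquitin chains to switch the pathway off.

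Most of the member promoters hold letters that match the sequence NF-kappa-B dimers bind, and the stretches around them are shown so that the chemokine genes can be compared by eye. They were read from the RefSeq promoter table (GRCh38.p14), in which all 10 members were found. The NF-kappa-B consensus was searched on both strands of the 250 bases before each start. It matched in 7 of 10 members and in 9.96% of 35116 promoters. Capitals mark the match, all sequences are on the strand of the gene, and positions count back from the start.
CXCL1 (chr4:73869305-73869333, plus strand): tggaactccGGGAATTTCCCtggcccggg
CXCL2 (chr4:74099254-74099282, minus strand): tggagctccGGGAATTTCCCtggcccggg
CXCL3 (chr4:74038749-74038777, minus strand): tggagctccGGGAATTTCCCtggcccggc
CXCL8 (chr4:73740468-73740496, plus strand): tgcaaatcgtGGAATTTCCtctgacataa
CCL20 (chr2:227813753-227813782, plus strand): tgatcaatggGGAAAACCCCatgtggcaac
IL6 (chr7:22727117-22727146, plus strand): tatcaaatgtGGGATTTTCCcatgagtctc
LCN2 (chr9:128149268-128149297, plus strand): cagcactccgGGAATGTCCCtcactctccc
TNFAIP3 (chr6:137867188-137867217, plus strand): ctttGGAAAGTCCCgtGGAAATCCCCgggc

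CXCL1, CXCL2 and CXCL3 held the same 11 bases, in which the consensus matched once on each strand with a shift of 1 base, and they lay between 79 and 68 bases before the start. CXCL8 did not match the consensus, and capitals there mark the shorter GGAATTTCC, found in 0.413% of all promoters and in CXCL1, CXCL2, CXCL3 and CXCL8, where in the first 3 it overlaps the consensus match. TNFAIP3 had 2 matches, and the match of LCN2 was the farthest from a start, at 175 bases. A motif of the AP-1 factors, TGANTCA, was found in CXCL8, IL1A and LCN2 and in 6.57% of all promoters. IL1B matched none of the 3 motifs in these 250 bases. A match is a run of letters, and binding was not measured in these samples.

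The targeted gene was checked first. QPRT was at 249 FPKM with control shRNA and 40.5 FPKM with QPRT shRNA in BT-20, against 117 and 18.3 FPKM for MDA-MB-468, so it went with the labels in both lines. The epithelial keratin KRT19 had a mean of 3243 FPKM over the libraries. Of the receptor genes PGR, ESR1 and ERBB2, by which triple-negative tumours are classed, PGR was at 0 in all 4. The other two were detected, ESR1 at 5.51 and 5.76 FPKM in BT-20 and at 1.87 and 1.05 FPKM in MDA-MB-468, and ERBB2 between 50.7 and 129 FPKM. The 14 leukocyte markers summed to 8.43 and 8.53 FPKM in BT-20 and to 36.3 and 38.5 FPKM in MDA-MB-468, of which CD14 had the highest mean, and MS4A1 and FCGR3B were at 0 in every library. The 10 stroma and endothelium markers summed with control and QPRT shRNA to 135 and 162 FPKM in BT-20. In MDA-MB-468 they summed to 23.9 and 18.2 FPKM, and 7 of the 10 were lower with QPRT shRNA in both lines. CDH5 had the highest mean of these, at 96.5 and 134 FPKM in BT-20 and at 1.24 and 0.912 FPKM in MDA-MB-468.

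Levels of the 10 members ran from 0 to 845 FPKM, as the plot of levels by library shows. LCN2 was the most abundant member in all 4 libraries. Among the others, only CXCL2, CXCL8 and TNFAIP3 also reached a mean of 1 FPKM over the libraries, the minimum for the test. CXCL1, CXCL3, CCL20, IL6, IL1A and IL1B stayed below it and were not tested. Their fragment numbers were small, from 3 for IL1A to 23 for CCL20 over all 4 libraries together. A fragment number below is the FPKM converted back to whole sequenced fragments.

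**Figure D1:**
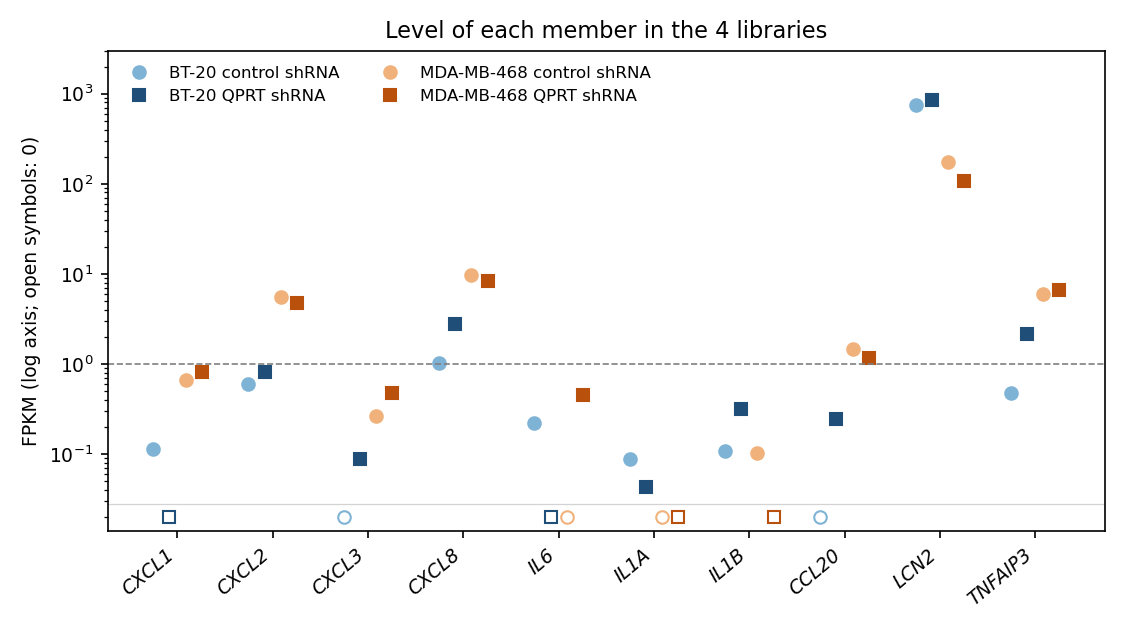
FPKM (log axis) of the 10 members, with 1 symbol per library: circles for control shRNA, squares for QPRT shRNA, blue for BT-20, orange for MDA-MB-468. Open symbols in the strip at the bottom stand for 0, and the dashed line is at 1 FPKM. LCN2 sits above all other members, and for CXCL2, CXCL8 and TNFAIP3 both orange symbols lie above both blue ones.

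Of the neutrophil chemokines, CXCL8 and CXCL2 were higher in MDA-MB-468, while CXCL1 and CXCL3 had too few fragments for the test. CXCL8 (chromosome 4, 73740506 to 73743716, plus strand, GRCh38) was at 1.03 FPKM with control shRNA and 2.75 FPKM with QPRT shRNA in BT-20, and at 9.58 and 8.42 FPKM in MDA-MB-468. These values stand for 11, 30, 105 and 87 fragments. Both MDA-MB-468 libraries were above both BT-20 libraries. On the log2(FPKM + 1) scale, which understates changes of low genes, the lines differed by 1.85 (standard error 0.278, MDA-MB-468 minus BT-20, adjusted p = 2.01e-10, limma, adjusted by the Benjamini-Hochberg method over all genes tested).

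CXCL2 (chromosome 4, 74097035 to 74099293, minus strand) was at 0.597 and 0.814 FPKM in BT-20 with control and QPRT shRNA, and at 5.56 and 4.79 FPKM in MDA-MB-468. The fragment numbers were 5, 7, 48 and 39. Again the lines did not overlap. The difference was 1.86 (standard error 0.294, adjusted p = 1.83e-09, limma). CXCL2 passed the minimum only through its level in MDA-MB-468, so that its being called adds little to the levels themselves.

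CXCL1 (chromosome 4, 73869393 to 73871242, plus strand) had 1 and 0 fragments in BT-20 with control and QPRT shRNA, against 6 and 7 in MDA-MB-468, at 0.656 and 0.811 FPKM. CXCL3 (chromosome 4, 74036589 to 74038807, minus strand) had 0 and 1 fragments in BT-20 against 3 and 5 in MDA-MB-468, at 0.265 and 0.469 FPKM. Both genes were thus higher in each MDA-MB-468 library than in either BT-20 library. With control shRNA the CXCL1 ratio of MDA-MB-468 over BT-20 was 5.82, with an exact Clopper-Pearson 95% interval from 0.706 to 268, and with QPRT shRNA, with 7 against 0 fragments, the interval began at 1.52. Set against 3 fragments, the limit that a count of 0 allows in a library, the 7 fragments give 2.47-fold. At these counts a difference of CXCL3 was not detectable under control shRNA, and under QPRT shRNA its ratio was 5.28 (0.591 to 250). The intervals cover counting error only, since without molecular identifiers 2 fragments may come from 1 molecule.

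CXCL1, CXCL2 and CXCL3 are near copies of each other, and their values carry that uncertainty. Their coding sequences, each 321 bases long in GENCODE 29, were 93.5% identical between CXCL1 and CXCL2, 90.7% between CXCL1 and CXCL3 and 94.4% between CXCL2 and CXCL3. The longest run that CXCL2 and CXCL3 share, 97 bases across the first intron, is printed below because a read within it fits either gene.
CXCL2 and CXCL3, coding bases 9 to 105: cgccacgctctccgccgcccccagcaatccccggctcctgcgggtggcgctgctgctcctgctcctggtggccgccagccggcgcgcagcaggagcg
The longest shared run was 61 bases between CXCL1 and CXCL2 and 55 bases between CXCL1 and CXCL3. The counter named in the submitters' notes, HTSeq, can drop reads that match several places, and how such reads were treated was not given in the sources used here.

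CCL20 (chromosome 2, 227805739 to 227817564, plus strand) attracts dendritic cells and lymphocytes that carry CCR6. It was at 0 and 0.245 FPKM in BT-20 with control and QPRT shRNA, and at 1.47 and 1.17 FPKM in MDA-MB-468, from 0, 2, 12 and 9 fragments. It followed the CXC chemokines in being higher in both MDA-MB-468 libraries. With control shRNA the 95% counting interval of the ratio of MDA-MB-468 over BT-20 began at 2.70, and the 12 fragments set against the limit of 3 give 3.88-fold. With QPRT shRNA the ratio was 4.76, and its 95% counting interval ran from 0.984 to 45.2.

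The interleukins were at the edge of detection in every library. IL6 (chromosome 7, 22725884 to 22732002, plus strand) had 2 and 0 fragments in BT-20 with control and QPRT shRNA, against 0 and 4 for MDA-MB-468. IL1B (chromosome 2, 112829751 to 112836903, minus strand) had 1 and 3 fragments in BT-20, against 1 and 0 for MDA-MB-468. IL1A (chromosome 2, 112773915 to 112784590, minus strand) had 2 and 1 fragments in BT-20 but 0 in both MDA-MB-468 libraries. The highest of these 12 values was 0.451 FPKM, for IL6 in the MDA-MB-468 library with QPRT shRNA. For IL6, IL1A and IL1B no difference between lines or shRNAs was detectable at this depth. IL6 overlaps STEAP1B on the other strand, which was at 0 in BT-20 and at 0.0821 and 0.0870 FPKM in MDA-MB-468, and whether counting used strand was not given in the sources used here.

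LCN2 went the other way. LCN2 (chromosome 9, 128149071 to 128153455, plus strand) was at 743 and 845 FPKM in BT-20 with control and QPRT shRNA, and at 173 and 106 FPKM in MDA-MB-468. This placed it at ranks 119 and 93 among all genes of the BT-20 libraries, and at ranks 731 and 1369 in MDA-MB-468. Behind the values stand 5322, 6214, 1279 and 739 fragments, more than for any other member. The difference between the lines was -2.54 on the log2(FPKM + 1) scale (standard error 0.189, adjusted p = 4.25e-39, limma), and 315 of 14321 genes tested were lower still in MDA-MB-468.

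TNFAIP3 (chromosome 6, 137867188 to 137883312, plus strand) behaved like the chemokines between the lines. It was at 0.469 FPKM with control shRNA and 2.16 FPKM with QPRT shRNA in BT-20, and at 5.96 and 6.67 FPKM in MDA-MB-468, from 11, 52, 144 and 152 fragments. Both MDA-MB-468 libraries were above both BT-20 libraries, although QPRT shRNA brought BT-20 closer. The difference was 1.76 (standard error 0.287, adjusted p = 5.66e-09, limma). An antisense gene, AL357060.1, overlaps it and was at 0, 0.261, 0.260 and 0.919 FPKM in the same order of libraries, so reads of the pair cannot be told apart if strand was not used.

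Between the lines, 3 members tested were thus higher in MDA-MB-468 and 1 was higher in BT-20. Over all 14321 genes tested, 30.7% were called higher in MDA-MB-468 and 24.4% higher in BT-20, 55.1% in all, so that a call between these lines is common. Each gene has 1 residual degree of freedom, and in this fit the error of a gene was taken wholly from genes of like mean, on which the smallest adjusted p-values rest. Over the settings tried, the adjusted p (limma) ranged from 4.72e-40 to 0.0257 for LCN2, from 4.27e-11 to 0.0208 for CXCL2, from 3.36e-11 to 0.0582 for CXCL8 and from 4.76e-10 to 0.0897 for TNFAIP3. The call of CXCL8 was lost without the MDA-MB-468 library with control shRNA (adjusted p = 0.0582, limma), and that of TNFAIP3 without that library (adjusted p = 0.0764) or without the MDA-MB-468 library with QPRT shRNA (adjusted p = 0.0897).

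By their mean FPKM, the members tested stood in the same order in both lines, LCN2, CXCL8, TNFAIP3 and CXCL2. In MDA-MB-468 the FPKM ranges of the 2 libraries did not overlap from LCN2 down through CXCL8, TNFAIP3, CXCL2, CCL20, CXCL1 and CXCL3. IL6 overlapped CXCL3 there. In BT-20 the range of TNFAIP3 overlapped those of CXCL8 and CXCL2, and the members other than these 3 and LCN2 lay below them. The ratio of fragments of MDA-MB-468 over BT-20 was larger with control shRNA than with QPRT shRNA for CXCL8, at 9.26 (4.97 to 19.1) against 3.07 (2.003 to 4.81). For TNFAIP3 it was 12.7 (6.89 to 26.0) against 3.09 (2.24 to 4.32), and for CXCL2 9.32 (3.73 to 29.99) against 5.89 (2.60 to 15.6). LCN2 was 4.29-fold lower in MDA-MB-468 with control shRNA (4.03 to 4.56) and 7.96-fold lower with QPRT shRNA (7.37 to 8.60).

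TNFAIP3 and CXCL8 were higher with QPRT shRNA than with control shRNA in BT-20, by more than their counting error. TNFAIP3 was 4.60-fold higher by fragments in BT-20 (95% interval 2.37 to 9.78), a difference of 1.10 on the log2(FPKM + 1) scale. It was the 1 member past 2-fold on that scale in BT-20, where 1.05% of all genes were at least 2-fold higher, and 115 genes had a larger difference. CXCL8 was 2.66-fold higher by fragments (1.29 to 5.87) and 0.88 higher on the log2(FPKM + 1) scale, with 230 genes above it. In MDA-MB-468 the fragment ratios were 1.12 for TNFAIP3 (0.885 to 1.42) and 0.879 for CXCL8 (0.654 to 1.18), and both intervals include no change. The difference between the lines in these responses was not tested, since each group is 1 library.

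The level of MDA-MB-468 genes in the BT-20 library with QPRT shRNA was measured beside these values. The 10 genes with at least 1000 fragments in both MDA-MB-468 libraries and at most 2 in BT-20 with control shRNA stood there at 0.498% of their mean in MDA-MB-468 (median), and at most at 1.16%. CXCL8 stood at 30.5% of its MDA-MB-468 mean in that library, TNFAIP3 at 34.2%, CCL20 at 18.6% and CXCL2 at 15.7%. None of these members met the rule for the 10 genes, all having fewer than 1000 fragments in MDA-MB-468. With control shRNA in BT-20, CXCL8 and TNFAIP3 already had 11 fragments each and CXCL2 had 5, above the limit of 2. The CCL20 value rests on 2 fragments. The sets are therefore not alike, and no cause of these levels was tested.

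CXCL2 showed no shift with the knockdown beyond its counting error. Its fragment ratio was 1.36 in BT-20 (0.372 to 5.45) and 0.862 in MDA-MB-468 (0.550 to 1.34). CCL20 had 0 and 2 fragments in BT-20, against 12 and 9 in MDA-MB-468, where the ratio was 0.795 (0.296 to 2.06). CXCL1 went from 1 to 0 and from 6 to 7 fragments, and CXCL3 from 0 to 1 and from 3 to 5. None of these 4 chemokines had an interval that excluded equal levels.

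LCN2 was slightly higher with QPRT shRNA in the BT-20 pair and lower in the MDA-MB-468 pair. By fragments it was 1.14-fold higher with QPRT shRNA in BT-20 (1.10 to 1.18) and 1.63-fold lower in MDA-MB-468 (1.49 to 1.79). On the log2(FPKM + 1) scale the differences were 0.18 and -0.70, beside medians over all genes tested of 0.048 and 0.011. Of all genes tested, 29.8% were higher in the BT-20 pair and lower in the MDA-MB-468 pair. No member reached 2-fold in MDA-MB-468, where 1.89% of all genes did in either direction, and 352 genes were further down than LCN2. Scaling each library to its upper quartile brought the BT-20 value to 0.078, and removing the trend with GC content and length brought it to 0.33.

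Markers of other epithelia and of plasma cells moved in the same libraries. The 18 gut epithelium markers summed in MDA-MB-468 to 127 FPKM with control shRNA and 31.5 FPKM with QPRT shRNA. In BT-20 they summed to 55.4 and 29.2 FPKM. With QPRT shRNA 15 of 18 were lower in both lines. This and the other marker counts include genes with a mean below 1 FPKM, some with few fragments. Of the 14321 genes tested, all above that minimum, 2529 were lower in both lines, so the bases are not alike. PIGR had the highest mean of the gut markers. The 9 gastric markers went from 33.1 to 4.77 FPKM and from 15.8 to 4.84 FPKM. The 7 plasma cell markers, led by IGHA1, went from 95.9 to 22.7 FPKM and from 38.01 to 17.7 FPKM. Lower with QPRT shRNA in both lines were 7 of the 9 gastric and 4 of the 7 plasma cell markers. LCN2 changed by -67.1 FPKM in MDA-MB-468 and gained 102 FPKM in BT-20. The part of these markers in the LCN2 values was not tested.

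**Figure D2:**
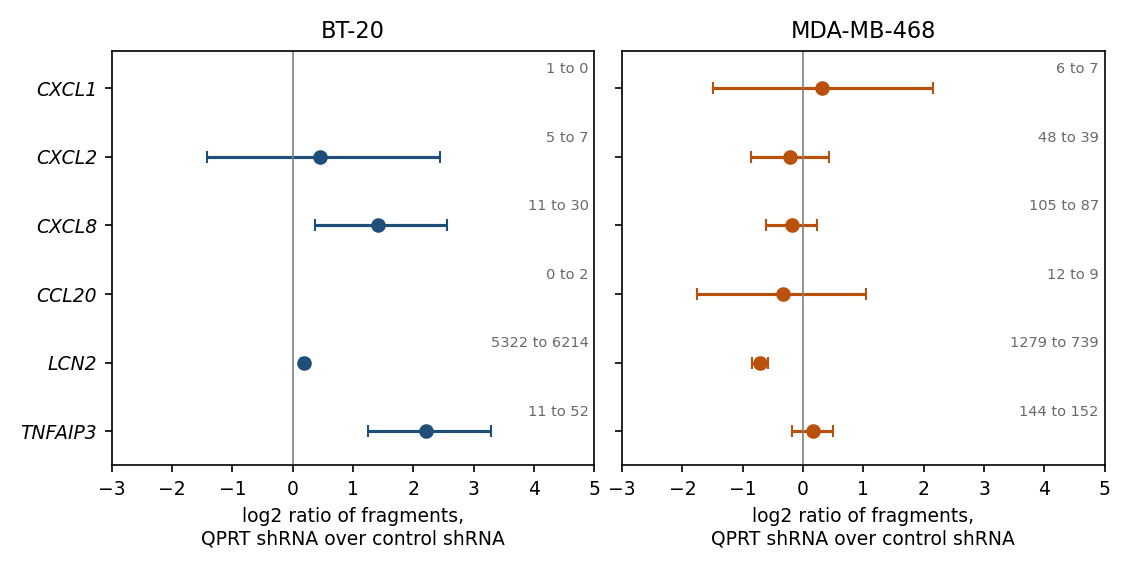
Log2 ratio of fragments, QPRT shRNA over control shRNA, for 6 members in each cell line, with exact 95% Clopper-Pearson intervals that cover counting error only. Grey numbers give the fragments with control and with QPRT shRNA, and no ratio is drawn where 1 of them is 0. The interval of LCN2 in BT-20 is hidden by its symbol. In BT-20 the intervals of CXCL8, LCN2 and TNFAIP3 lie above 0, and in MDA-MB-468 that of LCN2 lies below 0.

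Over both lines together, no member was called between shRNAs by limma at an adjusted p under 0.05, and 0.628% of all genes tested were. The genes called included QPRT and the gut, gastric and plasma cell markers of highest mean, PIGR, PGC and IGHA1. Among the members TNFAIP3 came nearest, with a mean difference of 0.62 (standard error 0.287, adjusted p = 0.885, limma), higher with QPRT shRNA in both lines. It was the 1 member with an unadjusted p under 0.05, which 687 of the 14321 genes had. CXCL8 differed by 0.36 and LCN2 by -0.26, with adjusted p = 1.00 for both (limma), and CXCL2 by 0.0018. Limma-voom on the fragments, which called 64 genes, called none of the members either.

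More of the listed receptors, of the pathway or of the members, were lower than higher in MDA-MB-468. Of 23 receptor genes listed 14 were tested, of which 8 were higher in BT-20 and 4 were lower there, against 24.4% and 30.7% of all genes. The 8 include SLC22A17, listed as a receptor of lipocalin-2. The median difference was -0.96, where the median over all genes tested was 0.10. CD40 and IL6R among the former and TLR5 among the latter passed the minimum only through the line in which they are high. The receptors of the chemokine members were all but absent from the table's values. CXCR1 and CCR6 were at 0 in all 4 libraries, and CXCR2 was at 0 apart from 0.107 FPKM in the MDA-MB-468 control library. CD40, a TNF receptor family member that activates NF-kappa-B, was at 18.5 and 20.1 FPKM in BT-20 and at 0 in both MDA-MB-468 libraries.

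IL1R1, the signalling receptor of IL1A and IL1B, was at 60.5 and 51.8 FPKM in BT-20 and at 9.44 and 6.13 FPKM in MDA-MB-468, a difference of -2.72 (standard error 0.230, adjusted p = 1.30e-30, limma). Its partner chain IL1RAP was higher in MDA-MB-468, by 0.97 (adjusted p = 0.00126, limma). IL6R differed by -2.13 and the shared signalling chain IL6ST by 1.10, so that both receptor pairs had 1 chain higher in each line. Of the microbial sensors, TLR2 and TLR4 stayed at or below 0.219 FPKM and TLR3 was between 0.779 and 1.19 FPKM, while TLR5, the flagellin receptor, was at 0.639 and 0.363 FPKM in BT-20 against 5.79 and 5.26 FPKM for MDA-MB-468. SLC22A17, a receptor reported to bind lipocalin-2, was at 9.12 and 6.005 FPKM in BT-20 and 3.02 and 1.46 FPKM in MDA-MB-468, the same order of lines as LCN2. SLC22A17 was named after its values were seen, and TLR3 and TLR5 also lie outside the fixed set of named genes.

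Other ligands of the pathway were, where tested, level or higher in MDA-MB-468. Of 26 listed 13 were tested. Called higher in MDA-MB-468 were 8 (30.7% of all genes were), and called higher in BT-20 were 0 (24.4% of all genes were). Of these 8, CCL2, CSF1, CX3CL1, LTB and TNFSF10 had a mean below 1 FPKM in BT-20 and passed the minimum only through MDA-MB-468, so 5 of the calls follow from the filter. TNFSF10, the death receptor ligand TRAIL, was at 0.174 and 0.169 FPKM in BT-20 and at 81.2 and 77.0 FPKM in MDA-MB-468. CSF1, the macrophage growth factor, was at 0.545 and 0.795 FPKM against 78.6 and 116 FPKM, and the membrane-bound chemokine CX3CL1 at 0 and 0.198 FPKM against 39.2 and 48.6 FPKM. The closest relatives of the members in function, CXCL5 and CXCL6, were at 0 in all libraries apart from 0.195 FPKM of CXCL6 in the MDA-MB-468 control library. The chemokine CXCL16 did not pass the test, at 35.1 to 47.5 FPKM.

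TNF, itself a target and an activator of NF-kappa-B, was at 0.0562 and 0 FPKM in BT-20 and at 1.74 and 1.04 FPKM in MDA-MB-468 and was below the minimum. CSF2 and the cyclooxygenase gene PTGS2 had values above 0 in 1 library each. LIF, a cytokine of the IL6 family, was at 12.4 FPKM with control shRNA and 34.4 FPKM with QPRT shRNA in BT-20, and at 39.3 and 39.1 FPKM in MDA-MB-468. As for TNFAIP3, the BT-20 library with control shRNA was the lowest, and shRNAs differed by 1.40 in BT-20, against -0.0077 for MDA-MB-468 (log2(FPKM + 1)). IL32 was between 0.542 and 2.49 FPKM and was not called.

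All 11 NF-kappa-B subunits and inhibitors were tested, 4 were higher in MDA-MB-468 and 2 in BT-20, and the median difference was 0.10. The share called, 54.5%, was near the 55.1% of all genes tested. RELA, the activating subunit of the classical dimer, had 126 and 113 FPKM in BT-20, against 123 and 152 FPKM for MDA-MB-468, and was not called (0.20, adjusted p = 0.400, limma). NFKB1 (0.10) and the inhibitor NFKBIA (-0.076) were not called either. The subunits of the alternative pathway were higher in MDA-MB-468, RELB by 1.08 (adjusted p = 7.00e-06, limma) and NFKB2 by 1.00 (adjusted p = 3.06e-05, limma), as was the inhibitor NFKBIE by 1.39 (adjusted p = 2.34e-07, limma). NFKBIZ, a nuclear cofactor needed for LCN2 and IL6 induction in other cells, was at 74.7 and 109 FPKM in BT-20. In MDA-MB-468 it was at 83.2 and 62.4 FPKM. With QPRT shRNA it was thus higher in BT-20 and lower in MDA-MB-468, as were LCN2 and 29.8% of all genes tested. A link between NFKBIZ and LCN2 was not tested.

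**Figure D3:**
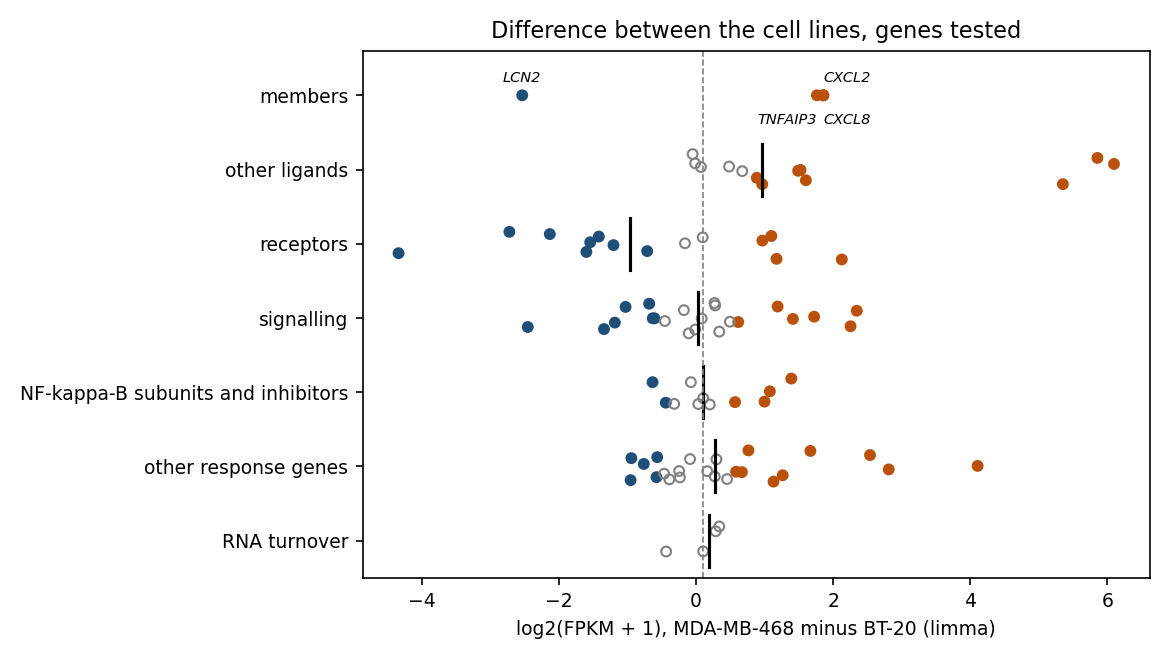
Difference between the cell lines on the log2(FPKM + 1) scale (MDA-MB-468 minus BT-20, limma) for each gene tested, by list. Filled points have an adjusted p under 0.05 (orange higher in MDA-MB-468, blue higher in BT-20), open points do not, black bars are list medians, and the dashed line is the median of all 14321 genes tested. CXCL2, CXCL8 and TNFAIP3 lie together near 1.8, LCN2 at -2.54, and receptors have the lowest list median, -0.96.

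In the signalling list 22 of 24 genes were tested, 6 were higher in MDA-MB-468 and 7 in BT-20, with a median difference of 0.034. The share called, 59.1%, was near the 55.1% of all genes tested. MAP3K14, the kinase that starts the alternative pathway, was lower in MDA-MB-468 by 2.46 on the log2(FPKM + 1) scale, at 22.2 and 19.3 FPKM against 2.58 and 3.37 FPKM. CHUK, the kinase subunit IKK-alpha, was higher by 2.34, and the adaptor TRAF5 by 2.25. TRAF5, at 0.135 and 0.230 FPKM in BT-20, passed the minimum only through MDA-MB-468, so its call follows from the filter. None of the 4 RNA turnover genes, among them ZFP36, which destabilises chemokine mRNAs, was called between the lines.

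Of 33 other response genes 23 were tested, 9 were higher in MDA-MB-468 and 5 in BT-20, with a median difference of 0.27. Here 60.9% were called, beside 55.1% of all genes tested. PLAU, the urokinase gene, was higher in MDA-MB-468 by 4.11, the acute phase gene SAA1 by 2.81 and the early response gene IER3 by 2.54. PLAU, at 0.296 and 0.144 FPKM in BT-20, and SAA2 passed the minimum only through MDA-MB-468, so 2 of the calls follow from the filter. ICAM1, an adhesion molecule for leukocytes, was at 21.6 and 26.1 FPKM in BT-20 and at 39.5 and 71.2 FPKM in MDA-MB-468 (1.13, adjusted p = 1.01e-06, limma), and the mitochondrial enzyme SOD2 was higher by 0.67. C3 (-0.24) and the apoptosis inhibitor BIRC3 (0.16) were not called. Over all 6 lists, 53 of 87 genes tested were called, or 60.9%, near the 55.1% of all genes.

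With QPRT shRNA none of these 87 genes was called over both lines by limma. In BT-20, LIF, IL1RN and S100A8 were at least 2-fold higher, 3 of 87 genes, and none was 2-fold lower, where 1.05% of all genes were higher and 0.649% lower by that much. In MDA-MB-468, IL1RN and S100A8 were at least 2-fold lower, 2 of 87 genes, and none was 2-fold higher, where 0.866% of all genes were lower and 1.03% higher. Each count rests on 1 pair of libraries. IL1RN, the antagonist that blocks the interleukin-1 receptor, was at 2.21 and 6.39 FPKM in BT-20 and at 8.99 and 3.63 FPKM in MDA-MB-468. S100A8, a calcium-binding protein of inflamed epithelium and neutrophils, went from 171 to 384 FPKM and from 281 to 135 FPKM, and was named after its values were seen. The plot of both lines shows them beside the members.

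**Figure D4:**
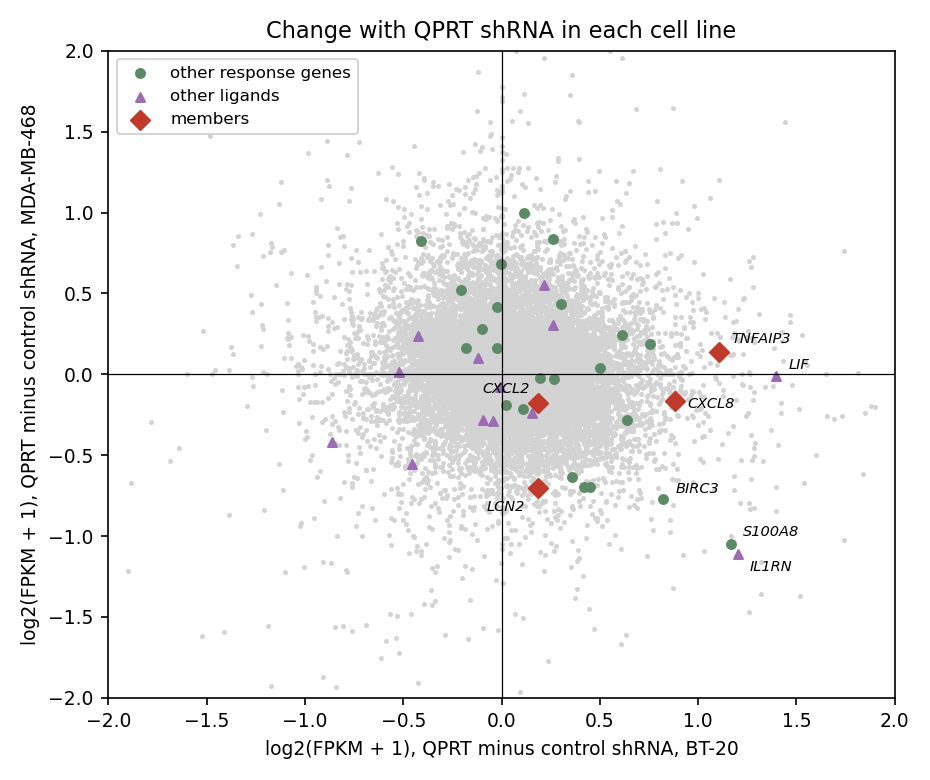
Change with QPRT shRNA on the log2(FPKM + 1) scale in BT-20 (horizontal axis) and MDA-MB-468 (vertical axis), for all genes tested (grey, 42 lie outside the axes), members (red), other response genes (green) and other ligands (purple). TNFAIP3, CXCL8 and LIF lie to the right near the horizontal line, while IL1RN, S100A8 and BIRC3 lie to the lower right and LCN2 lies below.

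For each member tested, the genes with the most similar pattern were found by the root mean square distance of log2(FPKM + 1), centred on the gene, over the 4 libraries. For CXCL2 these were DNAJC24 (distance 0.012), RIOK1 (0.027) and FNBP1L (0.029). For CXCL8 they were EPHB2 (0.075), CNIH3 (0.077) and FAM184A (0.080), and for TNFAIP3 ATP11A (0.075), CNIH3 (0.090) and LGALS2 (0.093). EPHB2 was at 6.32 and 11.0 FPKM in BT-20 with control and QPRT shRNA, against 32.7 and 31.4 FPKM for MDA-MB-468. For LCN2 they were FAR2P1 (0.090), ERMP1 (0.092) and H2AC25 (0.10), and ERMP1 went from 84.8 to 89.1 FPKM and from 19.5 to 12.7 FPKM. With 4 points a pattern of this kind is a description only.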

How the data were processed

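RNA was extracted with Trizol, and libraries were made from 1 ug of total RNA with an Illumina TruSeq kit and sequenced on a NovaSeq system. The submitters' processing notes name FastQC, MultiQC, CASAVA, TopHat2 2.0.12 and HTSeq 0.6.1, and the study names DESeq2 for its own tests. Genome build, annotation and strand setting were not given in the sources used here. The values deposited by the authors are FPKM, 1 for each library at every gene, without counts. Each library's group was read from its column name and labels.

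Of the 50653 Ensembl identifiers in the table, 34747 were matched to a symbol and 109 took a GENCODE 29 name. For 27 repeated symbols the row of highest mean was used. Gene coordinates are GENCODE 29 (GRCh38), matched by identifier. Fragments were recovered as FPKM times mean transcript length over what 1 fragment is worth, which was whole within 0.02 for 87.3% to 87.5% of values above 0 and for 97.6% to 97.8% in genes with 1 transcript. For CCL20, whose GENCODE 29 length of 678 gave no whole numbers, fragments were taken from the ratios between libraries, which imply a length of 748.

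The main test was limma 3.58.1 under R 4.3.3, on log2(FPKM + 1) of the 14321 genes whose mean was at least 1 FPKM, with additive terms for line and shRNA, eBayes with a trend and Benjamini-Hochberg adjustment over all of them. The 2 libraries of a line stood in for its replicates and the 2 lines for replicates of the knockdown. In the main fit p-values rest only on the spread of genes of like mean between these samples, not on a gene's own spread. The step was tested on simulated data. It recovered the changed genes there but made more false calls than its threshold allows, so adjusted p-values near the threshold may be too small. Far fewer genes were changed in the simulation than were called between the lines, and all by the same large fold. All of the changed genes had more fragments than CXCL2, so the recovery does not cover a gene that low. Within a line, a change of at least 2-fold on this scale was counted, with no test. Exact 95% Clopper-Pearson intervals of fragment ratios cover counting error only. Alternatives were a pseudocount of 0.1, upper quartile and TPM scaling, other filters, 1.5-fold, eBayes without the trend, removal of a GC content and length trend (lowess, fraction 0.3), limma-voom on fragments, fits without the shRNA or line term, and each library left out in turn. Robust eBayes was chosen after seeing the data.

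The members, the gene lists and the tests were chosen with earlier results of these data known. Named are the members, QPRT, a fixed set of pathway genes, and up to 3 called genes per pathway list with the largest difference between lines. The markers with the highest mean and the 3 genes most like each tested member are named too. Some genes outside these rules are also named, among them TLR3, TLR5, SLC22A17, S100A8 and S100A9. Scripts ran on Python 3.11.15 with pandas 2.3.3, numpy 2.4.6, scipy 1.17.1, Biopython 1.88 and matplotlib 3.10.9. The NF-kappa-B consensus is that of the classical dimer, 10 bases long. Protein levels were not analysed here.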

Additional observations from a re-analysis of the deposited data

Results flagged for a closer look

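LCN2 moved in opposite directions with QPRT shRNA in the 2 lines. The log2 ratio of its fragments was 0.18 for BT-20 but -0.71 for MDA-MB-468, with 95% counting intervals from 0.13 to 0.24 and from -0.84 to -0.57. On the log2(FPKM + 1) scale, 29.8% of all genes tested were likewise higher in BT-20 and lower in MDA-MB-468. The BT-20 value of LCN2 on that scale, 0.18, was 0.078 with upper quartile scaling. It was 0.33 with the GC content and length trend removed. The difference between the lines was not tested, since each group is 1 library.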

How the results depend on the processing

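Of the 4 members called between the cell lines, 2 (CXCL8 and LCN2) passed a mean FPKM of at least 5 and were called there, because fewer genes enter that filter. With no filter on low values 6 were called, CXCL1 and CCL20 being added. Leaving out each library in turn, with no shRNA term, gave 2 to 4 members, the lowest without MDA-MB-468 control shRNA (CXCL2 and LCN2 kept), and 32 to 37 of the pathway genes against 53, the lowest without BT-20 control shRNA. In BT-20 the count of members past 2-fold was 1, and it was 2 with a pseudocount of 0.1 and at 1.5-fold (CXCL8 and TNFAIP3) and 0 with a mean FPKM of at least 5. In MDA-MB-468 it was 0, and 1 at 1.5-fold (LCN2). The mean change of CXCL2 with QPRT shRNA, 0.0018, was -0.029 with upper quartile scaling and -0.063 with limma-voom. Control and QPRT libraries are paired by cell line; without the line block 0 members were called between shRNAs, as with it, and the standard error of TNFAIP3 was 0.981 in place of 0.287. Upper quartile scaling moved the median line difference of all genes by -0.10, and the share of calls higher in MDA-MB-468 from 55.7% to 49.0% (49.9% without the GC content and length trend). No line difference of a tested member changed direction in any setting. Depth limits the 6 members that were not tested, each with 23 or fewer fragments over 4 libraries.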

Other observations

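BIRC3, S100A8, S100A9, STEAP4 and TNFAIP2 were at least 0.3 higher with QPRT shRNA in BT-20 and at least 0.3 lower in MDA-MB-468 on the log2(FPKM + 1) scale. They are 5 of the 23 other response genes tested (21.7%), and 4.22% of all 14321 genes tested did the same. S100A9, the partner of S100A8 in calprotectin, was at 1656 FPKM with control and 2260.1 FPKM with QPRT shRNA in BT-20, against 1451 and 894 FPKM for MDA-MB-468. BIRC3 was at 4.84 and 9.30 FPKM, against 10.3 and 5.64 FPKM. IL1RN, IL1RAP, MAP3K7 and NFKBIZ met the same limits in the other pathway lists, 9 of 87 genes in all (10.3%). LCN2 had the same directions but missed the limit in BT-20, at 0.18. The limit of 0.3 and these genes were chosen after their values were seen, each group is 1 library, and no test was run.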
